A study of Mus musculus with 15 samples.

Results

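The collagen genes described here are the 44 genes of the count table, of 25382 in all, whose whole symbol is COL, a number, A and a number. They encode collagen alpha chains, and each symbol names the collagen type and then the chain. Of the 44, 30 had enough counts to be tested, among 15190 genes tested in all. The libraries were bulk RNA-seq of cells from dissociated primary tumours that MDA-MB-231 cells formed in mice of the strain given as Nod/Skid. The MDA-MB-231 line comes from a triple-negative breast carcinoma and is labelled GFP+ Luc+, so the cells of every group carry both reporters.

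The groups are named for fluid shear of the cells, the treatment that the labels give. Weakly adherent cells, sheared at 10 dyn/cm2, gave 6 libraries with the numbers 4, 5, 6, 7-8, 9 and 10 in their titles. Strongly adherent cells, sheared at 50 dyn/cm2, gave 4 libraries with the numbers 4, 5, 6 and 9. Unsorted cells, which saw no shear, gave 5 libraries with the numbers 4, 5, 6, 7-8 and 9. The labels give no age for the mice and do not say whether a number marks an animal, a cage or a day, so a p-value here measures the spread between these libraries, which may be technical. Total counts were 30372619 to 45434799 per library, and 3 counts, taken as the limit that a count of 0 allows, were worth 0.0631 to 0.1001 CPM (counts scaled to the library total and by edgeR's TMM factors). Reads were counted on human genes, and the labels name no step that removes mouse cells, so reads of conserved mouse transcripts may be among them.

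Collagen chains wind in threes into a triple helix, which the cell hydroxylates, folds and secretes, and which is then trimmed, assembled and crosslinked outside the cell. Fibrillar collagens, mainly type I with types III and V, give tissues their tensile strength, while type IV forms the network of basement membranes and other classes link, coat or anchor these structures. In breast tumours most fibrillar collagen is known as a product of fibroblasts, but carcinoma cells also express collagen genes.

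The collagen genes differed between the libraries titled 6 and the rest. In edgeR's test no collagen gene passed for another title number or between adhesion groups. The libraries titled 6 held less collagen mRNA than the others: collagen genes took 0.242 to 0.276% of all counts in those 3 libraries, against 0.308 to 0.503% in the other 12. Of the 30 genes tested, 15 fell and 1 rose in number 6 against the mean of the other 5 numbers, while 27.9% of all genes tested passed the same threshold, 16.4% lower and 11.6% higher. The threshold is an adjusted p of 0.05 in edgeR's quasi-likelihood test. The median log2 fold change was -0.97 over the collagen genes and 0.01 over all genes tested, and 26 of 30 collagen values were negative. The genes of type I, III and V collagen fell, COL4A1 and COL4A2 of the basement membrane did not pass, and COL6A3 was the gene that rose. That number 6 stands apart was known from earlier results of these data when this contrast was chosen. In bulk RNA, fewer cells that express a gene and less of its RNA per cell cannot be told apart.

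Over the 15 libraries, the title number accounted for a median of 59.9% of the spread of a collagen gene's log2 CPM, and adhesion group for 3.29%. The medians over all genes tested were 50.5% and 7.36%. With 6 numbers and 3 adhesion groups over 15 libraries, labels that carry no difference take 35.7% and 14.3% on average. The share was larger for number than for adhesion in 29 of 30 collagen genes and in 92.3% of all genes tested. COL13A1 was the exception, with 30.6% by number and 34.5% by adhesion. Without the 3 libraries titled 6, the median share by number was 43.0% for collagen genes and 41.3% for all genes tested, where labels alone take 36.4%.

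Type I collagen is built from the chains of COL1A1 and COL1A2. COL1A1 stood at 187 CPM in the weakly adherent, 132 CPM in the strongly adherent and 271 CPM in the unsorted library titled 6, against 285, 570 and 1059 CPM as the lowest, median and highest of the other 12 libraries. COL1A2 stood at 78.5, 37.3 and 61.0 CPM in the same order in number 6, against 88.3, 146 and 210 CPM. For both genes every library titled 6 lay below every other library. The log2 fold change was -1.66 ± 0.31 for COL1A1 (SE, 95% interval -2.35 to -0.97, adjusted p = 0.00373) and -1.28 ± 0.25 for COL1A2 (adjusted p = 0.0045).

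COL3A1 encodes type III collagen, which is laid down with type I in the same fibrils. Its levels were 18.7, 17.7 and 28.2 CPM in the weakly adherent, strongly adherent and unsorted libraries of number 6, against 47.1 to 119 CPM with a median of 77.4 CPM in the other 12. The groups did not overlap, and the fall was -1.96 ± 0.26 on the log2 scale (95% interval -2.54 to -1.39, adjusted p = 0.000577). COL3A1 and COL1A1 kept a narrow ratio within libraries: COL3A1 had 0.1002 to 0.165 counts per COL1A1 count over all 15, a 1.65-fold range. COL1A1 counts per COL1A2 count spanned 2.38 to 6.57.

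Type V collagen, of COL5A1 and COL5A2 chains, starts type I fibrils and limits their width. COL5A1 stood at 242, 265 and 257 CPM in the weakly adherent, strongly adherent and unsorted libraries titled 6, against 404, 477 and 633 CPM as the lowest, median and highest of the rest. COL5A2 stood at 15.9, 14.3 and 29.2 CPM in number 6, against 30.4, 56.1 and 107 CPM. Neither gene overlapped between number 6 and the rest, although the highest COL5A2 value in number 6 came close to the lowest elsewhere. COL5A1 fell by 0.89 ± 0.11 (adjusted p = 0.000332) and COL5A2 by 1.59 ± 0.31 (adjusted p = 0.00505) on the log2 scale.

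COL11A1, a chain of the type XI collagen best known from cartilage and desmoplastic stroma, had few counts. It had 0.154, 0.401 and 0.585 CPM in number 6, in the same library order, and 1.28 to 6.88 CPM with a median of 2.80 CPM elsewhere. All 3 libraries lay below the other 12, with a log2 fold change of -3.23 ± 0.52 (95% interval -4.36 to -2.10, adjusted p = 0.00118). The remaining fibrillar genes did not pass. Their log2 fold changes were -0.96 for COL11A2 (adjusted p = 0.168), -2.31 for COL24A1 (0.0899) and 0.52 ± 0.21 for COL27A1 (0.0832).

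**Figure D1:**
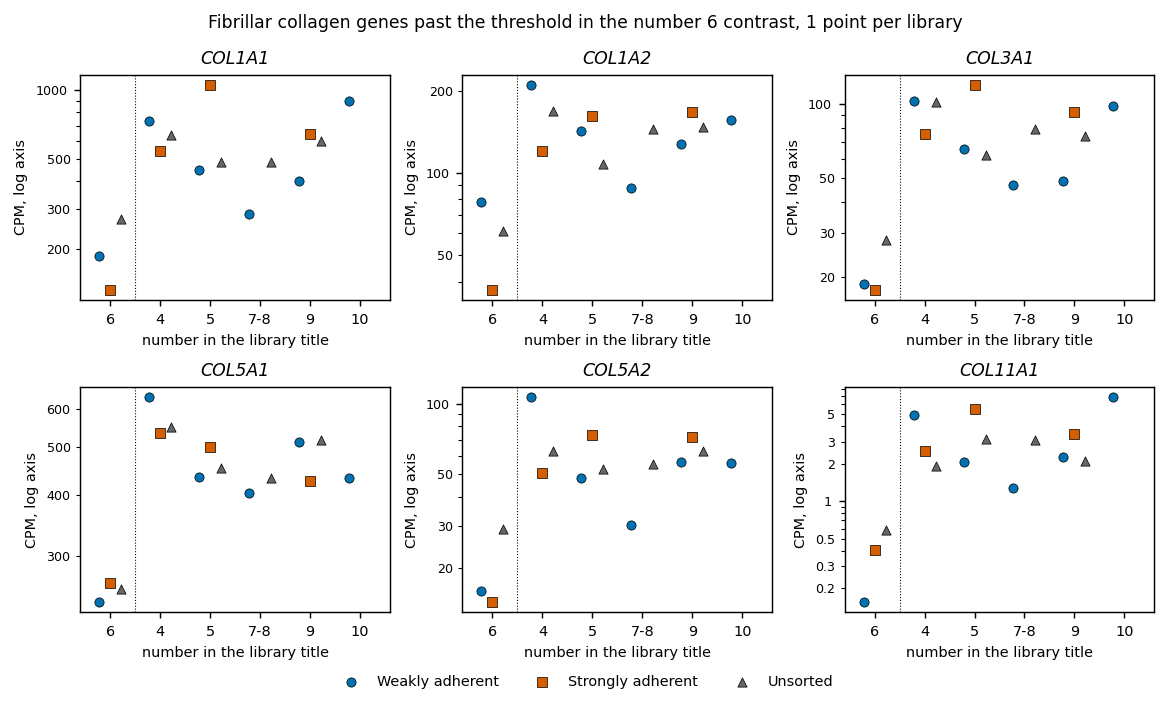
CPM on a log axis of the 6 fibrillar collagen genes that passed the threshold in number 6, by the number in the library title, with 1 point per library and a marker for each adhesion group. In every panel the 3 libraries titled 6, left of the dotted line, lie below the other 12.

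Counted by class, 6 of the 9 fibrillar genes tested fell and 0 rose, with a median log2 fold change of -1.59. Of the 7 basement membrane genes tested (types IV, XV and XVIII), 3 fell and 0 rose, with a median of -0.98. Of the 14 tested in the other classes, 6 fell and 1 rose, with a median of -0.57. The summed CPM of the fibrillar genes was 570 in the weakly adherent, 500 in the strongly adherent and 687 in the unsorted library titled 6, and 881 to 1932 in the other 12. Over all collagen classes, 12 of 30 genes had all 3 number 6 libraries below the other 12, as did 10.4% of all genes tested. None of the 30 had all 3 above, as 5.63% of all genes did. Within each of the 3 adhesion groups, the library titled 6 was the lowest for 14 of 30 collagen genes (13.9% of all genes) and the highest for 1, COL9A3 (8.56%).

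**Figure D2:**
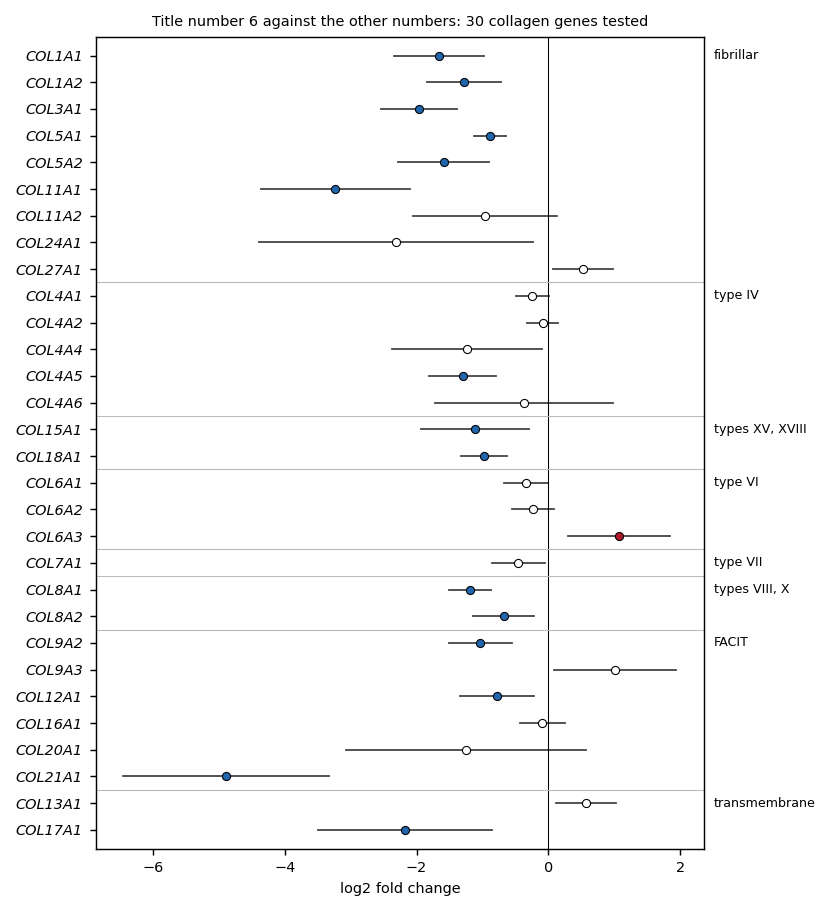
Log2 fold change of title number 6 over the mean of the other 5 numbers for the 30 collagen genes tested, by class, with points as estimates and lines as 95% intervals (blue, fell; red, rose; open, did not pass). The 6 fibrillar genes that fell lie between -3.23 and -0.89, and COL6A3 is the single red point, at 1.07.

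COL4A1 and COL4A2, the chains found in nearly every basement membrane, gave no call. COL4A1 stood at 114, 109 and 132 CPM in the weakly adherent, strongly adherent and unsorted libraries titled 6, against 124, 141 and 195 CPM as the lowest, median and highest of the rest. COL4A2 stood at 325, 339 and 299 CPM, against 297, 348 and 460 CPM. The ranges overlapped for both. Their log2 fold changes were -0.24 (95% interval -0.49 to 0.01, adjusted p = 0.130) and -0.09 (95% interval -0.33 to 0.15, adjusted p = 0.580). Within libraries there were 0.323 to 0.465 COL4A1 counts per COL4A2 count, a 1.44-fold range.

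The other type IV chains have a narrower distribution in the body. COL4A5, which assembles with COL4A6 or with COL4A3 and COL4A4, had 5.31, 3.42 and 3.31 CPM in number 6, in the same library order, against 6.93, 9.87 and 17.6 CPM as the lowest, median and highest elsewhere. All number 6 values lay below the rest, and COL4A5 fell by 1.30 ± 0.24 on the log2 scale (adjusted p = 0.00219). COL4A6 had 0.0509 to 0.676 CPM in number 6 and 0.0928 to 0.799 CPM elsewhere, with a log2 fold change of -0.37 (adjusted p = 0.691), and COL4A4 gave -1.24 (adjusted p = 0.0955).

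COL18A1 and COL15A1 encode the basement membrane collagens whose C-terminal fragments include endostatin. COL18A1 had 236, 210 and 191 CPM in the weakly adherent, strongly adherent and unsorted libraries titled 6, against 336, 402 and 542 CPM as the lowest, median and highest elsewhere. The groups were fully apart, and COL18A1 fell by 0.98 ± 0.16 (adjusted p = 0.00118). COL15A1 had 0.276 to 0.428 CPM in number 6 and 0.328 to 1.37 CPM elsewhere, and fell by 1.11 ± 0.38 (adjusted p = 0.0438).

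Type VI collagen forms beaded filaments from 1 chain each of COL6A1, COL6A2 and, in most tissues, COL6A3. The last moved opposite to the fibrillar genes. COL6A3 stood at 285, 302 and 396 CPM in the weakly adherent, strongly adherent and unsorted libraries titled 6, against 50.2, 244 and 305 CPM as the lowest, median and highest of the rest. Only the unsorted library lay above all others, and the log2 fold change was 1.07 ± 0.35 (95% interval 0.29 to 1.84, adjusted p = 0.0457). COL6A1 had 664, 493 and 449 CPM in number 6, in the same library order, against 486 to 945 CPM with a median of 682 CPM. COL6A2 had 202, 172 and 178 CPM, against 158 to 311 CPM with a median of 228 CPM. Both overlapped the rest and did not pass, at -0.34 (adjusted p = 0.118) and -0.23 (adjusted p = 0.263).

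The balance of type VI chains varied through COL6A3. There were 0.429 to 0.883 COL6A3 counts per COL6A1 count in number 6, against 0.0650 to 0.537 with a median of 0.307 elsewhere, a 13.6-fold range over all 15 libraries. The lowest ratios were 0.0650 in strongly adherent library 5, 0.135 in weakly adherent library 10 and 0.147 in strongly adherent library 4. COL6A2 counts per COL6A1 count spanned 0.237 to 0.397, a 1.67-fold range.

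**Figure D3:**
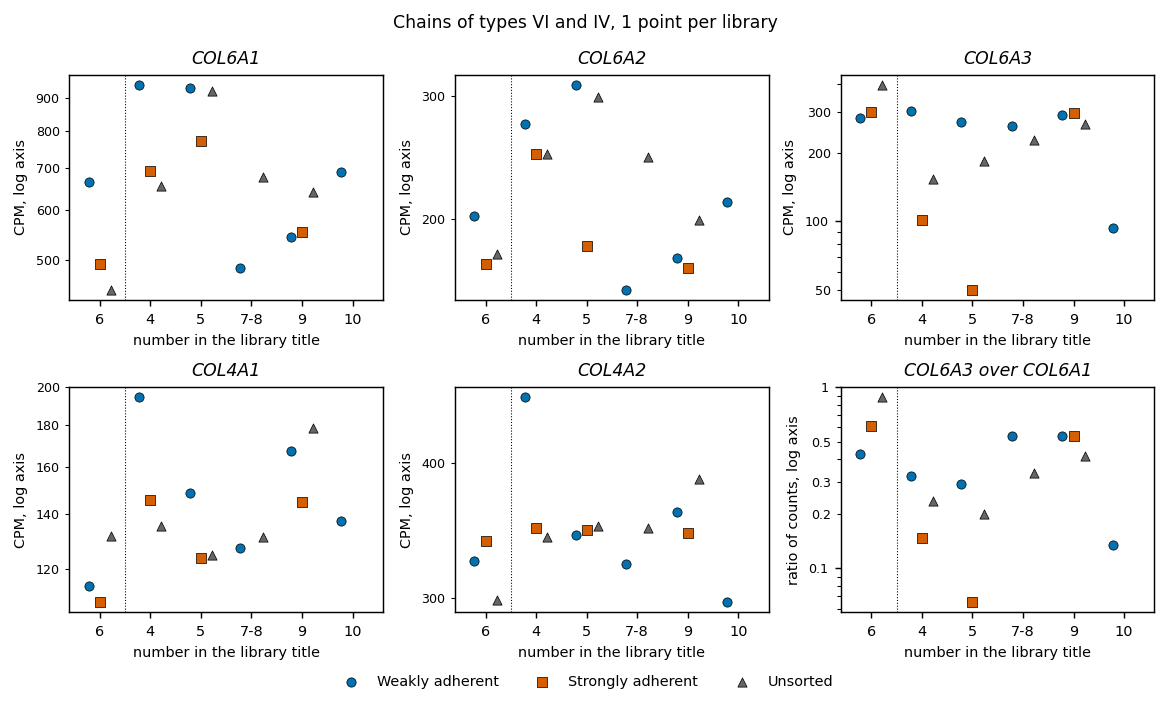
CPM of the type VI and type IV chain genes and the ratio of COL6A3 to COL6A1 counts, on log axes, by the number in the library title, with 1 point per library. COL6A3 spans 50.2 to 396 CPM, while COL4A2 stays between 297 and 460 CPM.

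COL7A1 encodes the collagen of the anchoring fibrils that tie epithelial basement membranes to the tissue beneath. It had 271, 177 and 237 CPM in the weakly adherent, strongly adherent and unsorted libraries titled 6, against 239, 319 and 446 CPM as the lowest, median and highest elsewhere. The ranges overlapped, and the log2 fold change was -0.46 ± 0.18 (adjusted p = 0.0836). COL8A1, a chain of the short network-forming type VIII collagen of vessel walls and the cornea, had 15.3, 14.5 and 17.5 CPM in number 6, against 27.5, 36.2 and 44.9 CPM. It was apart in all 3 libraries and had the smallest adjusted p of the collagen genes (log2 fold change -1.19 ± 0.14, adjusted p = 0.000246). Its partner COL8A2 had 2.37 to 4.01 CPM in number 6 and 3.44 to 5.96 CPM elsewhere, and fell by 0.68 ± 0.22 (adjusted p = 0.0335).

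FACIT collagens, which sit on the surface of fibrils and do not form fibrils themselves, gave 3 genes that fell among 6 tested. COL21A1, a FACIT collagen of unclear function, had 4, 2 and 6 counts in number 6, or 0.123, 0.0535 and 0.153 CPM in the weakly adherent, strongly adherent and unsorted library. In the other 12 it had 0.847, 2.24 and 8.35 CPM as the lowest, median and highest. COL21A1 had the largest fold change of the collagen genes tested, -4.89 ± 0.72 (95% interval -6.46 to -3.33, adjusted p = 0.00081), and its number 6 counts are few enough that this value is imprecise.

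COL9A2, a chain of the type IX collagen of cartilage, had 15.6, 8.08 and 12.3 CPM in number 6 in the same library order, against 16.2, 23.3 and 38.1 CPM as the lowest, median and highest elsewhere. It was lower in all 3 libraries, narrowly so in the weakly adherent one, and fell by 1.03 ± 0.22 (adjusted p = 0.00566). COL9A3, the other type IX chain tested, had a log2 fold change of 1.01 (adjusted p = 0.0944). COL12A1, which coats type I fibrils in tissues under tension, had 43.6, 35.5 and 45.3 CPM in number 6, against 37.4, 72.3 and 104 CPM. It overlapped the rest and fell by 0.79 ± 0.26 (adjusted p = 0.0408). COL16A1 and COL20A1 did not pass, at -0.09 (adjusted p = 0.688) and -1.25 (adjusted p = 0.283).

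Of the transmembrane collagens, COL17A1, a hemidesmosome component of basal epithelial cells, had 19.8, 7.14 and 14.1 CPM in the weakly adherent, strongly adherent and unsorted libraries titled 6, against 32.9, 51.4 and 158 CPM as the lowest, median and highest elsewhere. The groups did not overlap, and COL17A1 fell by 2.18 ± 0.58 (adjusted p = 0.0253). COL13A1, found at cell-matrix contacts and the neuromuscular junction, had 222, 110 and 202 CPM in number 6, against 51.0, 143 and 171 CPM. Its weakly adherent and unsorted values exceeded all others while its strongly adherent value did not. COL13A1 did not pass, at 0.57 ± 0.21 (95% interval 0.11 to 1.02, adjusted p = 0.0611).

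Of the 16 calls in number 6, 11 passed under all 20 settings tried, which include leaving out each library in turn: COL1A1, COL1A2, COL3A1, COL5A1, COL5A2, COL11A1, COL4A5, COL18A1, COL8A1, COL9A2 and COL21A1. The other 5 were each lost without some single libraries. COL17A1 did not pass without strongly adherent or unsorted library 6 (adjusted p up to 0.0811). COL8A2 did not pass without weakly adherent library 6, strongly adherent library 4 or 6, or unsorted library 6, 7-8 or 9 (adjusted p up to 0.151). COL12A1 did not pass without weakly adherent library 6, 9 or 10, strongly adherent library 6 or 9, or unsorted library 4, 6, 7-8 or 9 (adjusted p up to 0.194). COL6A3 did not pass without weakly adherent library 7-8 or 10, strongly adherent library 4 or 6, or any unsorted library (adjusted p up to 0.201). COL15A1 passed without weakly adherent library 4 or 10 or strongly adherent library 5 and missed without each of the other 12 (adjusted p up to 0.136). With no filter on low counts, COL12A1, COL15A1 and COL6A3 missed the threshold (adjusted p of 0.0645, 0.0629 and 0.0773), and with number as the only term COL6A3 did (0.84, adjusted p = 0.132). Of the genes that missed the threshold, COL7A1 passed without unsorted library 4 (adjusted p = 0.0433) and COL27A1 without weakly adherent library 6 (adjusted p = 0.0342). COL13A1 passed without weakly adherent library 5, strongly adherent library 5 or strongly adherent library 9 (adjusted p as low as 0.0129). COL9A3 passed as a rise without strongly adherent library 4 (log2 fold change 1.31, adjusted p = 0.0226). COL20A1 passed as a fall without strongly adherent library 6 (-3.14, adjusted p = 0.0414). With DESeq2 on all 15 libraries, COL13A1 (0.59, adjusted p = 0.0245) and COL27A1 (0.54, adjusted p = 0.0434) passed as rises.

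No other number gave a collagen call. In edgeR's test 0 of 30 passed in numbers 4, 5, 7-8, 9 and 10, where 0%, 0%, 0.0658%, 0.0197% and 0% of all genes tested did. At an unadjusted p under 0.05 there were 9 collagen genes in number 4, 5 in number 5, 1 in number 7-8, 6 in number 9 and 6 in number 10. Of all 15190 genes tested, 836, 1376, 814, 1519 and 2175 were under 0.05 in these numbers, in the same order. DESeq2 called 1 gene in number 4 (COL5A1, log2 fold change 0.52, adjusted p = 0.00336) and 0 in the others. In the single library titled 10, COL6A3 stood at 93.3 CPM and COL1A1 at 897 CPM, and their log2 fold changes were -1.66 (adjusted p = 0.304) and 1.25 (adjusted p = 0.252). A test for any difference among the 6 numbers called 9 of the 30, as it did 7.9% of all genes: COL5A1, COL8A1, COL3A1, COL21A1, COL4A5, COL11A1, COL18A1, COL9A2 and COL1A1, with adjusted p between 0.0052 and 0.0468. All 9 are among those that fell in number 6. Without strongly adherent library 6 the test called 2, and without strongly adherent library 4 or unsorted library 6 it called 5. COL1A1 missed in this test without each library except weakly adherent libraries 4 and 10, strongly adherent library 5 and unsorted library 5. It also missed with DESeq2's size factors (adjusted p = 0.0507) and with no filter on low counts (adjusted p = 0.0768). COL9A2 missed without each library except weakly adherent libraries 5, 6, 7-8 and 10 and unsorted library 7-8.

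Some markers of other cell types also passed the threshold in number 6, and their part in the collagen values was not tested. Over all genes tested, 11.6% rose and 16.4% fell in this contrast. Median log2 fold changes were 6.26 for the muscle, 0.83 for the endothelial and -0.88 for the pericyte and smooth muscle markers tested. They were -0.77 for macrophage and -1.52 for adipocyte markers, against 0.01 over all genes tested. Of 10 skeletal muscle markers, all tested, 6 rose. Their summed level was 131, 354 and 768 CPM in the weakly adherent, strongly adherent and unsorted libraries titled 6, against 3.99 to 10.1 CPM in 11 libraries and 2221 CPM in strongly adherent library 5. Of 8 endothelial markers, 6 were tested and 4 rose (197 to 205 CPM summed, against 36.7 to 165 CPM). Of 8 pericyte and smooth muscle markers, all tested, 4 fell and 1 rose (92.7 to 316 CPM, against 139 to 370 CPM). Of 7 macrophage markers, 3 fell and 1 rose (123 to 206 CPM, against 74.4 to 130 CPM). Of 6 adipocyte markers, 2 were tested and 1 fell (0.611 to 2.57 CPM, against 0.617 to 15.6 CPM, with ADIPOQ at 0 in every library).

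These counts rest on few libraries. With single libraries left out, 0 to 10 of the muscle markers rose. The count was 0 without weakly adherent library 6 or unsorted library 6 or 7-8, 1 without weakly adherent library 7-8 or unsorted library 9, 2 without weakly adherent library 9, strongly adherent library 9 or unsorted library 4, and 10 without strongly adherent library 5. Of the endothelial markers, 1 rose without strongly adherent library 4 or 6 or unsorted library 6 or 7-8, and 2 without weakly adherent library 7-8 or unsorted library 4 or 9. Of the macrophage markers, 1 fell without strongly adherent library 6. The rise among pericyte and smooth muscle markers was lost without strongly adherent library 6, and 2 rose without strongly adherent or unsorted library 5. The fall among adipocyte markers was lost without any single library titled 6.

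Fibroblast markers summed to 43.8 to 58.8 CPM in number 6 and 30.9 to 79.1 CPM in the other 12 libraries. Of 10 such markers, 7 were tested, with a median log2 fold change of -1.21, against 0.01 over all genes tested. Of the 7, 2 fell and 0 rose, where 16.4% of all genes fell and 11.6% rose. The count of falls was 1 without strongly adherent library 4, 6 or 9 or any unsorted library but 5. It was 3 without weakly adherent library 4 or strongly adherent library 5. A rise of 1 fibroblast marker appeared without weakly adherent library 4 or 10, strongly adherent library 9 or unsorted library 7-8. FBLN1, which encodes fibulin-1, was one of the 2 (log2 fold change -1.57, adjusted p = 0.0014). DCN, which encodes the fibroblast proteoglycan decorin, had at most 7 counts in any library, THY1 at most 4 and MFAP5 at most 9. Of 6 cartilage and bone markers only SOX9 was tested, and it did not pass. SP7 was at 0 throughout and SOX9 at 122 to 130 CPM in number 6, against 116 to 179 CPM. Of 8 genes used as MDA-MB-231 markers, 1 rose and 2 fell, where 11.6% of all genes tested rose and 16.4% fell. Their median log2 fold change was 0.10, and they summed to 10663 to 12138 CPM in number 6, against 7827 to 10438 CPM. The genes that fell, KRT8 and KRT18, passed under all 20 settings tried. Their log2 fold changes in these settings were -1.50 to -1.11 and -1.42 to -0.98. The gene that rose, VIM, missed the threshold (adjusted p = 0.0763) when strongly adherent library 6 was left out, and without weakly adherent library 6 there were 2 rises. VIM, the mesenchymal filament gene, had 6489 to 7399 CPM in number 6, against 1143 to 4478 CPM in the rest.

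Genes that make, process, bind or cut collagen were counted from lists chosen by role. Of 20 genes for hydroxylation and folding, 4 rose and 1 fell in number 6, with a median log2 fold change of 0.07. That is 5 of 20 called, near the 27.9% of all genes. PLOD2, a lysyl hydroxylase that sets the type of crosslink, had 154 to 256 CPM in number 6 and 56.5 to 142 CPM elsewhere and rose by 0.93 ± 0.19 (adjusted p = 0.00494). COLGALT1, a collagen galactosyltransferase, rose by 0.52 (adjusted p = 0.00815), CRTAP, of the prolyl 3-hydroxylase complex, by 0.50 (adjusted p = 0.0108) and P4HA1, a prolyl 4-hydroxylase subunit, by 0.73 (adjusted p = 0.0463). SERPINH1, the collagen chaperone HSP47, fell by 0.45 (adjusted p = 0.0336). COLGALT1 and CRTAP did not pass without strongly adherent library 6 (adjusted p of 0.0734 and 0.0884).

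Of 13 genes tested for procollagen processing and crosslinking, 5 fell and 2 rose, with a median of -0.06, against 16.4% of all genes lower, 11.6% higher and a median of 0.01. ADAMTS2 and ADAMTS14, which trim the N-terminal propeptide, fell by 1.60 ± 0.29 (adjusted p = 0.00236) and 1.33 ± 0.23 (adjusted p = 0.00169). BMP1, which trims the C-terminal propeptide, had 76.6 to 103 CPM in number 6 and 124 to 220 CPM elsewhere and fell by 0.94 ± 0.13 (adjusted p = 0.000625). Of the lysyl oxidase family, which crosslinks collagen, LOXL3 fell by 1.12 (adjusted p = 0.00854), LOXL4 rose by 1.17 (adjusted p = 0.00818) and LOX was at 1.04 without passing (adjusted p = 0.142).

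Of 10 receptor genes tested 3 fell and 0 rose, with a median of 0.03, against 16.4% of all genes lower and 11.6% higher. They include DDR1, a collagen-activated receptor tyrosine kinase (83.4 to 142 CPM in number 6, 203 to 333 CPM elsewhere, log2 fold change -1.13, adjusted p = 0.00153), and SDC1 (-0.60, adjusted p = 0.0344). Of 8 cleavage genes 3 fell and 0 rose. They were the gelatinase gene MMP2 (-1.76, adjusted p = 0.00136) and the collagenase genes MMP13 (-6.41, adjusted p = 0.0038) and MMP1 (-2.00, adjusted p = 0.0421). Of 12 collagen-binding matrix genes 5 fell and 0 rose, with a median of -0.91. SPARC, a collagen-binding matricellular protein, had 41.4 to 56.3 CPM in number 6 and 103 to 216 CPM elsewhere and fell by 1.85 ± 0.16 (adjusted p = 6.05e-05). The small proteoglycans FMOD and BGN fell by 3.12 (adjusted p = 0.000378) and 1.47 (adjusted p = 0.00137), MATN2 by 1.90 (adjusted p = 0.00155) and the perlecan gene HSPG2 by 0.78 (adjusted p = 0.0365). Besides COLGALT1 and CRTAP, 5 of the genes named from these lists lost their call without single libraries. SERPINH1 did not pass without weakly adherent library 10, strongly adherent library 4 or 6, or unsorted library 6 or 7-8 (adjusted p up to 0.222). SDC1 did not pass without strongly adherent library 4 or 6 or unsorted library 7-8 or 9 (adjusted p up to 0.193). HSPG2 did not pass without weakly adherent library 6 or 9, strongly adherent library 6 or 9, or unsorted library 4 or 7-8 (adjusted p up to 0.174). P4HA1 missed without each library except weakly adherent library 5, strongly adherent libraries 5 and 9 and unsorted library 5 (adjusted p up to 0.225). MMP1 missed without each except weakly adherent libraries 4, 6, 7-8 and 10 and unsorted library 7-8 (adjusted p up to 0.147). Without strongly adherent library 6, 1 hydroxylation gene rose and 1 receptor gene fell, and without weakly adherent library 6, 3 hydroxylation genes fell. Of the crosslinking genes 1 rose without any single library except weakly adherent library 5 or 6. A receptor gene rose without weakly adherent library 6, a matrix gene without unsorted library 6, and a cleavage gene without weakly adherent library 4 or 10, strongly adherent library 9 or unsorted library 6 or 7-8.

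**Figure D4:**
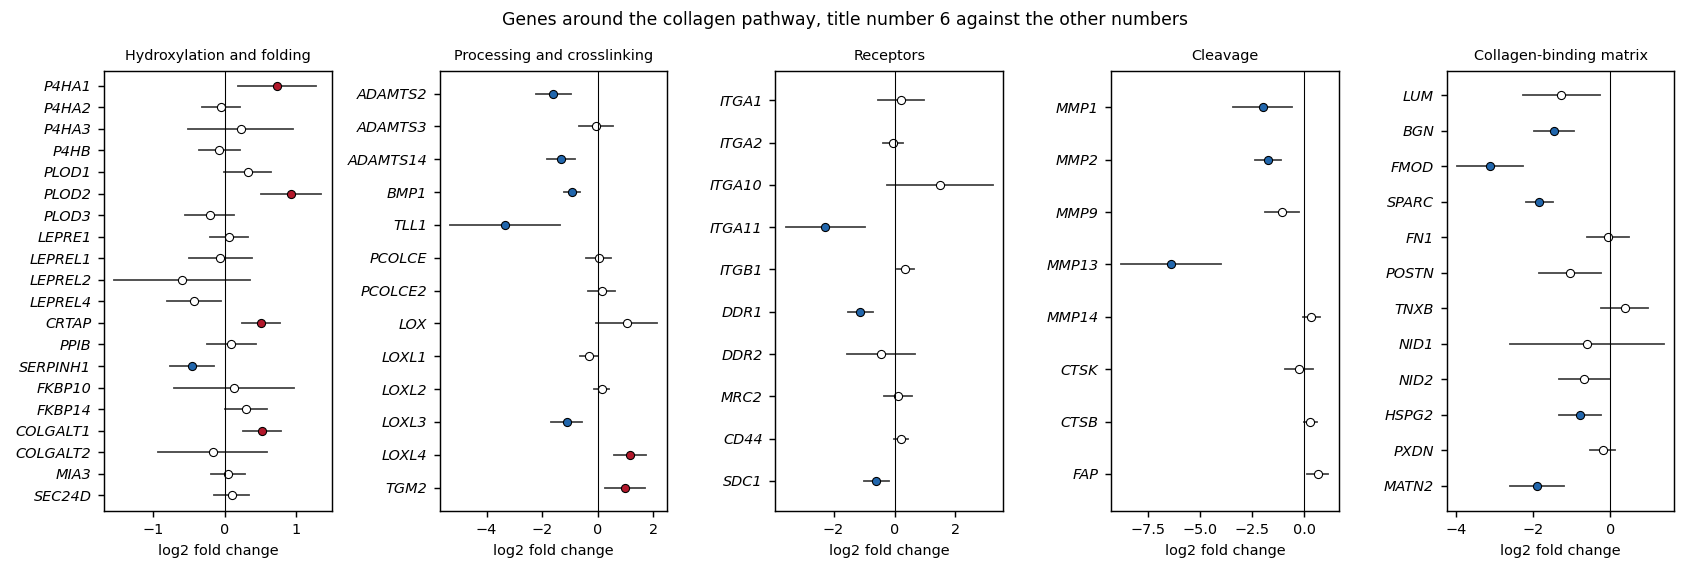
Log2 fold change of title number 6 over the mean of the other 5 numbers for the tested genes of 5 lists around collagen, with points as estimates and lines as 95% intervals (blue, fell; red, rose; open, did not pass). Rises appear among the hydroxylation and crosslinking genes, such as PLOD2 at 0.93, and the collagen-binding matrix genes have a median of -0.91.

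The adhesion comparisons ask whether expression in the tumours differs between weakly adherent, strongly adherent and unsorted cells. Weakly against strongly adherent, edgeR called 0 of 30 collagen genes and 0% of all genes tested, and 1 collagen gene had an unadjusted p under 0.05, as 2.41% of all genes did. Weakly adherent against unsorted, 0 of 30 were called and 0% of all genes, with 0 collagen genes and 0.533% of all genes at an unadjusted p under 0.05. Strongly adherent against unsorted, 0 of 30 were called and 0% of all genes, with 1 and 3.77% at an unadjusted p under 0.05. DESeq2 also called 0 collagen genes in each. Median log2 fold changes over the 30 genes were 0.03, 0.02 and -0.00 in the 3 comparisons.

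COL13A1 was the gene behind both unadjusted values. It stood at 101.1, 146 and 222 CPM as the lowest, median and highest of 6 weakly adherent libraries, and at 90.9, 51.0, 110 and 153 CPM in strongly adherent libraries 4, 5, 6 and 9. In unsorted libraries 4, 5, 6, 7-8 and 9 it stood at 108, 151, 202, 144 and 157 CPM. The groups overlapped, with the strongly adherent library 5 lowest. The log2 fold change was 0.60 ± 0.27 weakly against strongly adherent (95% interval 0.03 to 1.16, unadjusted p = 0.0395, adjusted p = 0.99998) and -0.59 ± 0.27 strongly adherent against unsorted (95% interval -1.17 to -0.01, unadjusted p = 0.0483, adjusted p = 0.975). With the title number as a block in edgeR's fit, strongly adherent against unsorted was -0.64 ± 0.23 (unadjusted p = 0.0169, adjusted p = 0.566). Within title numbers 4, 5, 6 and 9, the ratio of the weakly to the strongly adherent library was 1.45, 3.35, 2.02 and 0.931.

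The type I gene COL1A1 had 187, 424 and 897 CPM as the lowest, median and highest of the weakly adherent libraries, 539, 1059, 132 and 640 CPM in strongly adherent libraries 4, 5, 6 and 9, and 635, 484, 271, 486 and 600 CPM in unsorted libraries 4, 5, 6, 7-8 and 9. In each group the library titled 6 was the lowest. Weakly against strongly adherent, the log2 fold change was -0.27 with a 95% interval of -1.33 to 0.80, and the ratio within numbers 4, 5, 6 and 9 was 1.36, 0.423, 1.41 and 0.6247. These pairs went both ways. Without strongly adherent library 5 the fold change turned to 0.17.

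COL6A3 had 93.3, 278 and 305 CPM as the lowest, median and highest of the weakly adherent libraries, 102, 50.2, 302 and 297 CPM in strongly adherent libraries 4, 5, 6 and 9, and 153, 184, 396, 228 and 266 CPM in unsorted libraries 4, 5, 6, 7-8 and 9. All 3 groups overlapped. The weakly over strongly adherent ratio was 3.004 and 5.41 in numbers 4 and 5 but 0.944 and 0.981 in numbers 6 and 9, and the log2 fold change was 0.42 (95% interval -0.58 to 1.43).

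Of the genes given here, intervals were narrowest for the basement membrane chains COL4A1 and COL4A2. For COL4A2 the log2 fold change was 0.03 weakly against strongly adherent (95% interval -0.22 to 0.27), and for COL4A1 it was 0.18 (95% interval -0.14 to 0.49). For COL5A1 it was 0.04 (95% interval -0.50 to 0.58), and for COL7A1 0.05 (95% interval -0.40 to 0.51). They were widest for COL21A1, at -0.997 (95% interval -3.18 to 1.19), and COL17A1, at -0.53 (95% interval -2.05 to 0.99). A p that misses the threshold does not show that the groups are alike, and the interval of COL21A1 holds differences above 2-fold in both directions. By class, weakly against strongly adherent, the 9 fibrillar genes had a median of -0.01 on the log2 scale, the 7 basement membrane genes 0.03 and the other 14 genes 0.05.

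**Figure D5:**
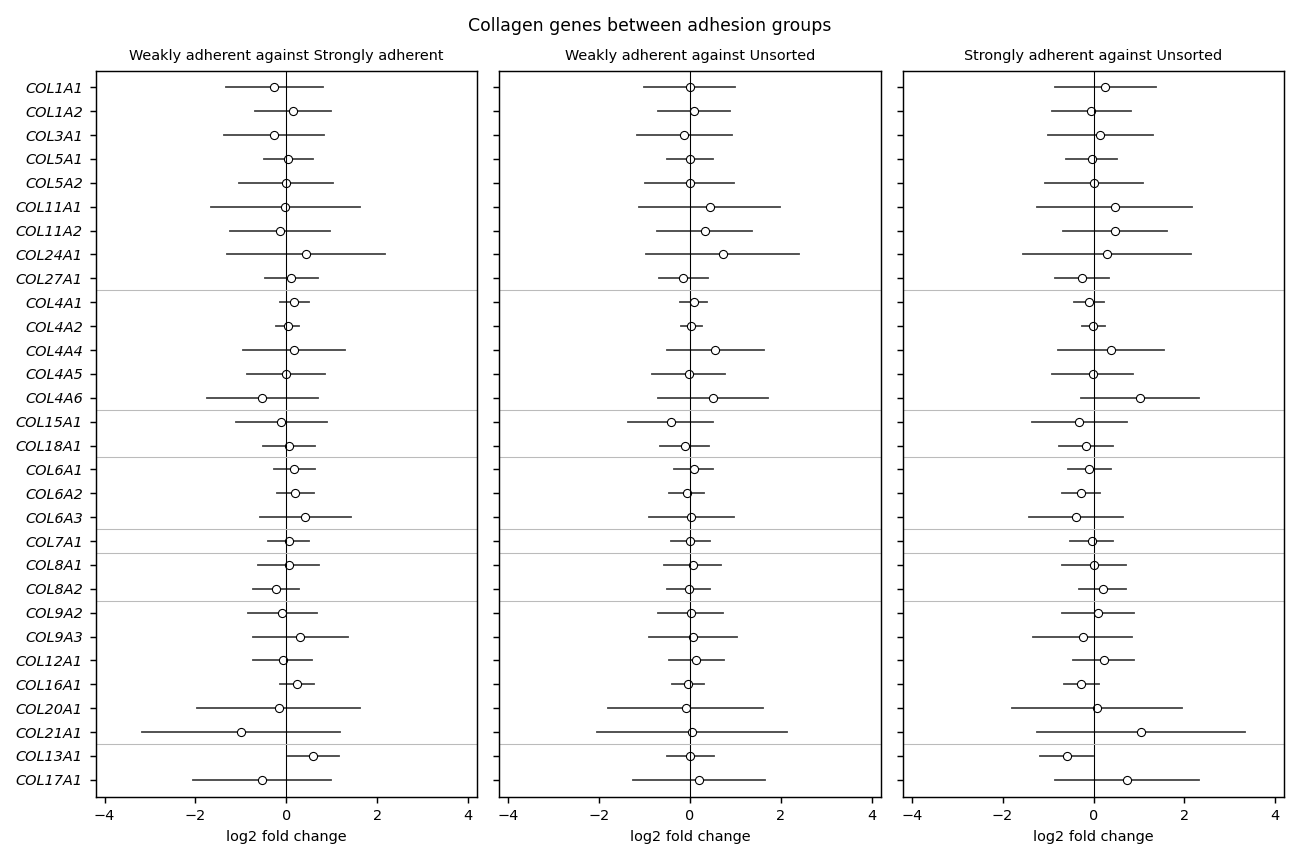
Log2 fold change of the 30 collagen genes tested in the 3 comparisons of adhesion groups, with points as estimates and lines as 95% intervals, in the order of classes used above. No gene passed the threshold, and COL13A1 is farthest from 0 relative to its interval in the outer panels, at 0.60 and -0.59.

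Strongly adherent library 5 weighs on these comparisons. It had the highest COL1A1 (1059 CPM), COL3A1 (119 CPM), COL17A1 (158 CPM) and COL21A1 (8.35 CPM) of all 15 libraries and the lowest COL6A3 (50.2 CPM) and COL13A1 (51.0 CPM). The skeletal muscle markers summed to 2221 CPM there, and their ranges were 4.82 to 131 CPM in weakly adherent, 8.91 to 2221 CPM in strongly adherent and 3.99 to 768 CPM in unsorted libraries, a difference whose part in the collagen values was not tested. Without the libraries titled 6, and without those and strongly adherent library 5, the 3 comparisons again gave 0 collagen calls.

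The 14 collagen genes that were not tested had 450 counts in all, against 2196713 for the 30 tested, so their differences are poorly resolved at this depth. With no filter on low counts, the 13 with any count entered the number 6 contrast, and 0 passed in edgeR's test. COL10A1, the collagen of hypertrophic cartilage, had 107 counts with at most 32 in a library. COL4A3, a chain of kidney and lung basement membranes, had 69, of which number 6 held 0, 1 and 1 counts in the weakly adherent, strongly adherent and unsorted library, against 2 to 9 counts in each of the other 12. The libraries titled 6 lay below the rest, each under the limit of 3 counts, and COL4A3 did not pass (adjusted p = 0.0701). At an unadjusted p under 0.05, COL10A1 and COL4A3 were the 2 genes of the 13. With the filter, 6189 of the 15190 genes tested were under 0.05 in this contrast. COL25A1 had 86 counts and COL28A1 83. COL14A1 and COL5A3 had 29 each, COL19A1 17, COL23A1 12, COL26A1 7 and the cartilage gene COL2A1 6. COL9A1 and COL22A1 had 2 each and COL6A5 had 1. COL6A6 had 0 in every library.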

How the data were processed

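The kit was Illumina TruSeq stranded and reads were single-end, 50 bp long, per the labels' protocols. The tools were STAR, HTSeq, cutadapt, FastQC and DESeq2, on build hg19, per the submitters' processing notes. For versions and strand setting, nothing is given in the sources used here. The authors deposited raw counts per human gene symbol, which were the basis of every test. Their table of normalized values was not used here.

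The tests were those of edgeR 4.0.16 under R 4.3.3 (TMM factors, filterByExpr on adhesion group, robust quasi-likelihood fit, two-sided, Benjamini-Hochberg adjustment over 15190 genes, threshold 0.05). The filter kept 99.98% of the counts. Adhesion groups were compared in a fit of all 15 libraries with the group as the only term. Title numbers were compared in a fit with number and adhesion, each number against the unweighted mean of the other 5, so that number 10 rests on 1 library. Standard errors were derived as the absolute log2 fold change over the square root of F, and the 95% intervals from them are approximate. The share of spread by number or adhesion is the between-group share of the sum of squares of log2 CPM (prior count 2). None of the 105 pairs of libraries agreed within sampling noise (the smallest chi-square per degree of freedom was 18.7). The limit of 3 counts covers counting error.

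Deviations from the group means of same-numbered strongly adherent and unsorted libraries correlated at 0.280 to 0.750 in 4 of 4 pairs, so the numbers were taken to pair these libraries, from their titles. The same-numbered library was the best match in only 2 of these 4 pairs. The main adhesion tests did not use the pairing. Alternatives were a block for the number, DESeq2 1.42.0 and its size factors, 2 other filters, and leaving out each library, the number 6 libraries, or these and strongly adherent library 5. The collagen genes, the lists and the contrasts were chosen with earlier results of these data known. Genes described are the main chains of each class, others past the threshold, and from each list up to 5 genes of smallest adjusted p in number 6 at a mean of at least 1 CPM. Levels were not compared between genes, since human gene lengths were not used here.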

Additional observations from a re-analysis of the deposited data

Results flagged for a closer look

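In 90 sets of libraries (30 collagen genes in 3 adhesion groups), a library stood far from the others of its group in 7, where chance gives about 1 in 20. Among type VI chains, COL6A3 was at 93.3 CPM in weakly adherent library 10, against 261 to 305 CPM in the other weakly adherent libraries, and COL6A2 was at 247 CPM in strongly adherent library 4, against 170 to 183 CPM. The basement membrane gene COL4A1 was at 178 CPM in unsorted library 9, against 125 to 136 CPM in the other unsorted libraries. The FACIT gene COL16A1 was at 13.7 CPM in unsorted library 4, against 8.50 to 9.59 CPM. COL20A1, a gene of few counts, was at 0.231 CPM in strongly adherent library 5, against 0.997 to 1.05 CPM, and at 2.32 CPM in unsorted library 9, against 0 to 0.601 CPM. COL8A2 was at 4.01 CPM in strongly adherent library 6, against 5.17 to 5.37 CPM.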

How the results depend on the processing

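The count of collagen calls in number 6 was 13 to 18 under the other tools, filters and scalings and 11 to 17 with single libraries left out. The test for any difference among numbers called 15 with DESeq2, and 2 to 12 with single libraries left out. In the main fit these tests called 16 and 9 of the 30 collagen genes and 27.9% and 7.9% of all genes. The shares of all genes under the other settings are not given here, so the counts above cannot be read against them. In number 4 DESeq2 called 1. The remaining numbers and the 3 adhesion comparisons gave 0 under every setting tried. With the number as a replicate block, the adhesion comparisons gave 0 calls each, so the block changed no call, and COL13A1 weakly against strongly adherent reached 0.75 ± 0.23 (unadjusted p = 0.0068, adjusted p = 0.698). For the pairing, same-numbered weakly and strongly adherent libraries deviated together in 3 of 4 pairs (correlation 0.0164 to 0.767), and weakly adherent and unsorted ones in 4 of 5 (0.0328 to 0.683), which misses the rule that every pair exceed 0.1, so the block is given only here for these comparisons. With single libraries left out, COL1A1 weakly against strongly adherent ranged from -0.60 to 0.17 and COL17A1 from -0.92 to 0.056, the positive values both without strongly adherent library 5; the cause was not tested. Of the other values of the collagen genes followed through these settings, 546 kept direction and side of the threshold, 42 no longer passed and 7 newly passed. COL9A3 and COL20A1 were not among the genes followed. They newly passed in number 6 without strongly adherent library 4 and strongly adherent library 6, respectively. Depth limits the genes under 1 CPM, among them COL21A1 and COL11A1 in number 6, and the number of libraries limits the adhesion comparisons.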

Other observations

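COL17A1, the hemidesmosome collagen, spanned 7.14 to 158 CPM and the FACIT gene COL21A1 spanned 0.0535 to 8.35 CPM over the 15 libraries. Of the transmembrane collagens, COL17A1 fell in number 6 and COL13A1 did not pass. There were 11.3 to 15.4 COL13A1 counts per COL17A1 count in number 6, against 0.322 to 4.73 with a median of 2.16 in the other 12 libraries. The lowest of these ratios was 0.322, where COL13A1 stood at 51.0 CPM and COL17A1 at 158 CPM, in strongly adherent library 5.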
